A study of Mus musculus with 6 samples.

Results

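The genes described here flank Myh6 on mouse chromosome 14. A list of 53 genes around that locus was taken, and 50 of them were found by symbol in the deposited tables, which hold 29385 genes in all. Rem2, Rbm23 and Chmp4a were not found by symbol and were not analysed here. Of the 50, 47 passed a filter on low read counts and were tested, while Cebpe, Cpne6 and Tgm1 did not. The members lie between positions 54235479 and 55900293 of chromosome 14 (GRCm38), a stretch of 1664.8 kb. Myh6 is read from the minus strand. Beyond its 3′ end lie 19 of the members, from Cmtm5 at 2.6 kb to Dad1 at 687.8 kb. Beyond its 5′ end lie 31, from Ngdn at 48.5 kb to Sdr39u1 at 930.4 kb. Distances run from the edge of the Myh6 gene body to the nearer edge of the member.

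Myh6 is the gene of alpha myosin heavy chain, the motor of adult mouse heart muscle. Cas13d is an enzyme that cuts RNA, not DNA, at sequences matched by a guide RNA. Genes that sit side by side on a chromosome can share regulatory DNA, so an altered allele, the passenger DNA linked to it, or a treatment aimed at the RNA of that allele raises the question of whether neighbouring genes change as well. The flanking genes have no common function. They include subunits of the proteasome activator, amino acid transporters, enzymes of lipid and sugar metabolism, and factors of RNA processing.

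RNA was measured in 6 libraries from mouse hearts, 2 in each of 3 groups. In 1 group Myh6 was RH/+ and vehicle was given. In both others Myh6 was RH/RQ, and either vehicle was given or AAV-hpCas13d, which is an adeno-associated virus delivering a form of Cas13d. The RH allele was present in every group, so no group had a wild-type locus on both chromosomes. Hearts were taken 12 months after an administration to newborn mice. The labels do not spell out the alleles, and they give neither strain, sex, heart region nor the promoter of the virus. Nor do they say whether replicate libraries are separate animals. A p-value here reflects no more than the spread among these samples, which may be technical.

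Read totals were 36269261 to 51017058 per library. Summed levels of 7 cardiomyocyte markers, in CPM (reads scaled to the library total), were 42606 and 43602 in RH/+ vehicle, 36843 and 37039 in RH/RQ vehicle, and 42136 and 40570 in treated hearts. Sums were lowest in the RH/RQ vehicle pair, which overlapped neither other pair, and limma called 0 of the 7 in any comparison. The labels give no sex, but sex-linked transcripts differed with the group. The level of Xist was 0.274 and 0.0516 CPM in RH/RQ vehicle hearts and 265 to 326 CPM in the other 4 libraries. Ddx3y, a Y-linked gene, was at 85.2 CPM in both RH/RQ vehicle libraries and had 0 reads in the other 4, which allows up to 0.0827 CPM. In both comparisons with RH/RQ vehicle hearts, genotype or treatment therefore cannot be told apart from the sex-linked pattern. The treated RH/RQ and RH/+ hearts had the same pattern.

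Most flanking genes were expressed in the heart at steady levels. The mean over the 6 libraries was at least 10 CPM for 29 members, between 1 and 10 CPM for 13, and under 1 CPM for 8. Per kb of annotated exon, the highest levels were those of Nedd8, a ubiquitin-like protein that switches on cullin ligases, at 62.8 CPM per kb, and of Fitm1, a membrane protein of lipid droplet formation in muscle, at 60.2 CPM per kb. Dhrs4, a carbonyl reductase, followed at 49.9 CPM per kb. At the other end, Cebpe, a transcription factor of granulocytes, had 1 read in a single RH/RQ vehicle library and 0 in the other 5. Cpne6 had 10 reads in treated replicate 2 and 1 or 2 in each other library, and Tgm1, a transglutaminase, had 2 to 9 reads per library. Between libraries, the median coefficient of variation was 11.2% for the members tested and 13.2% for all 16804 genes tested. Summed over the 50 members, the level was 1349 and 1400 CPM in RH/+ vehicle, 1350 and 1282 CPM in RH/RQ vehicle, and 1515 and 1360 CPM in treated hearts. The RH/+ pair overlapped both other pairs, and both treated libraries lay above both RH/RQ vehicle libraries.

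**Figure D1:**
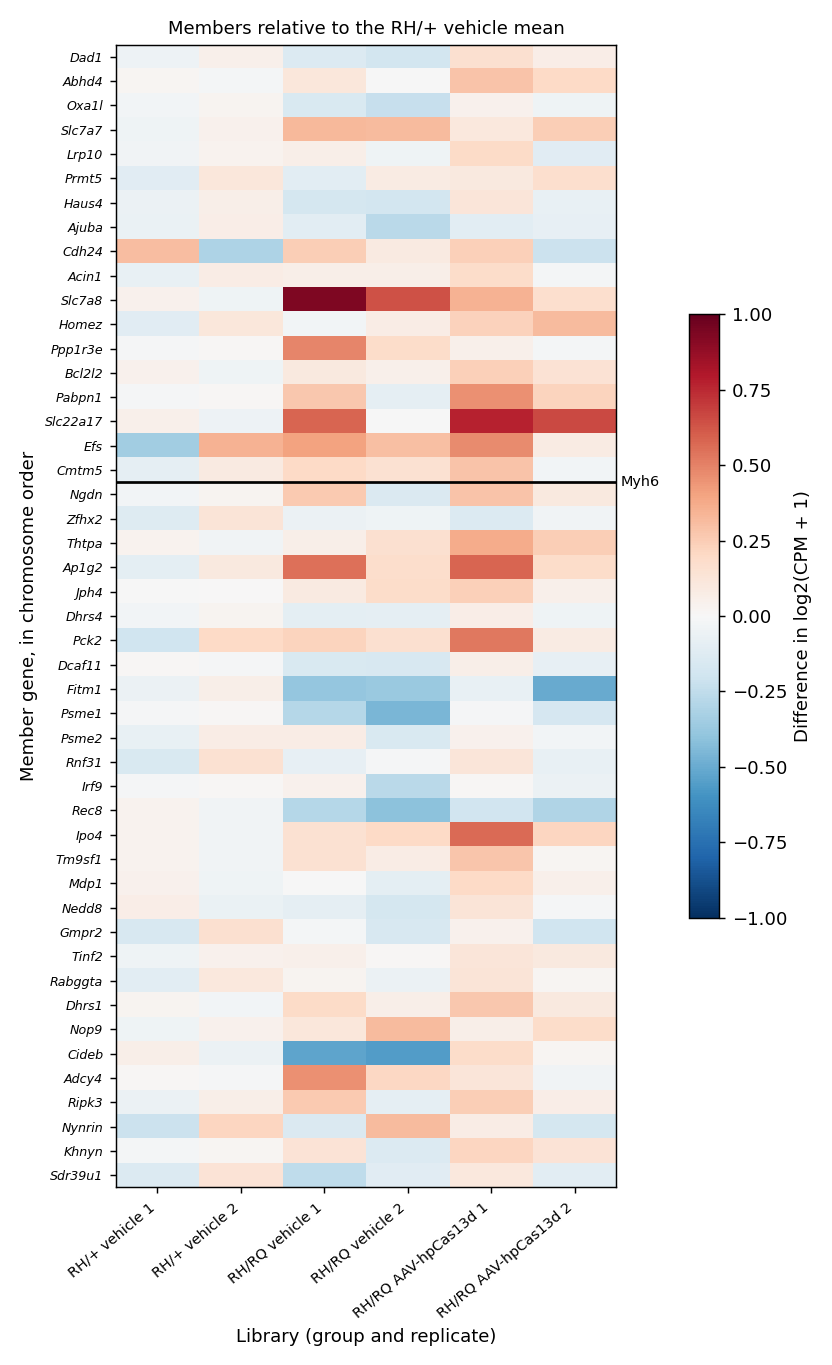
Each row is 1 of the 47 tested members in chromosome order and each column 1 library; colour shows the difference in log2(CPM + 1) from the mean of the 2 RH/+ vehicle libraries, and the black line marks Myh6. Most cells are pale, and Slc7a8 and Slc22a17 carry the strongest reds.

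In each of the 3 comparisons, few flanking genes passed the test. A gene was called when limma gave it an adjusted p under 0.05 over all genes tested. Only 4 members were called at all, each in a single comparison by library total: Slc7a8, Psme1, Cideb and Slc22a17. Their start regions are shown because they are the members whose RNA passed the test. The 250 bases before each annotated start (RefSeq, GRCm38.p6) run along the strand of the gene. Slc7a8 starts from chr14:54781887-54782136 on the minus strand, and Slc22a17 from chr14:54913133-54913382 on the minus strand. Psme1 starts from chr14:55578244-55578493 on the plus strand, and Cideb from chr14:55758425-55758674 on the minus strand. These RefSeq starts differ from the GENCODE positions given for the genes below. The Psme1 window lies inside its GENCODE gene (from 55578123), and the Slc7a8 and Cideb windows run into theirs, which end at 54781946 and 55758458. Those windows therefore need not lie wholly upstream of the gene. Capitals mark matches to a GC box (GGGCGG) or a TATA box (TATAAA).
Slc7a8: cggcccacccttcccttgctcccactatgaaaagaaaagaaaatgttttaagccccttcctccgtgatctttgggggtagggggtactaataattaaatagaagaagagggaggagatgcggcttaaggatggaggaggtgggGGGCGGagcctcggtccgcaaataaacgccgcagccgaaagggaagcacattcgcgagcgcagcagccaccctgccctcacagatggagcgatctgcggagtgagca
Slc22a17: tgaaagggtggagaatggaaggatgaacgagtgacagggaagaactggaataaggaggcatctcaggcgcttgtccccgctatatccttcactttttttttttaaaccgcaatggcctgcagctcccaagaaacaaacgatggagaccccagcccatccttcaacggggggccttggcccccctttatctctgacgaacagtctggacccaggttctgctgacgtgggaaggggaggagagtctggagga
Psme1: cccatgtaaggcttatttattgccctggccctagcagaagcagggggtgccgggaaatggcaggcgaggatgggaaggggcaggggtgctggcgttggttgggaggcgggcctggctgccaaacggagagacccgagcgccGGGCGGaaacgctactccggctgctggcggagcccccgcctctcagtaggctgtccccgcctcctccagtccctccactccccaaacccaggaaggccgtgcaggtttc
Cideb: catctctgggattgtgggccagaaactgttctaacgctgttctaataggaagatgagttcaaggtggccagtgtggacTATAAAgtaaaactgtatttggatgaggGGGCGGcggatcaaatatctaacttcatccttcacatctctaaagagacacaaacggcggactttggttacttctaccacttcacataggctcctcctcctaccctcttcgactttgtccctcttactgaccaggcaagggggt
These motifs, with the CCAAT box (CCAAT), were picked after expression values were seen and searched on both strands. The GC box was found in Slc7a8, Psme1 and Cideb, and TATAAA in Cideb. The Slc22a17 window held none of the 3. Of 32851 promoters of this length, 32.7% held GGGCGG, 12.4% TATAAA and 33.8% CCAAT. Among the 47 members with a promoter entry, 25, 1 and 14 held them in any of their entries. The shares count single promoter entries and the members count genes, so they are not in the same unit. A match describes the letters only.

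The vehicle groups, RH/RQ against RH/+, were compared to ask whether flanking genes differ with the RQ allele. Of the 47 members tested, 1 was higher (Slc7a8) and 1 was lower (Psme1). Over all genes limma called 4.99%, with 3.48% higher and 1.51% lower. The median log2 fold change was 0.033 for the members and 0.038 for all genes tested, and with TMM factors, a scaling that discounts a few very high genes, the median of the members was -0.011. At an unadjusted p under 0.05 stood 6 members (12.8%), against 17.1% of all genes. On the log2(CPM + 1) scale, the 95% interval of the change lay within 1.5-fold in either direction for 37 of the 47 members and for 78.1% of all genes. That scale shrinks changes of low genes, so for such genes this range does not bound the fold of the level itself.

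Slc7a8 (position 54722209 to 54781946), a transporter of large neutral amino acids that lies 160.0 kb from Myh6, was higher in RH/RQ vehicle hearts. Its level was 2.34 and 2.13 CPM in RH/+ vehicle, 5.19 and 4.02 CPM in RH/RQ vehicle, and 3.12 and 2.64 CPM in treated hearts. The 3 groups did not overlap, with RH/+ lowest and RH/RQ vehicle highest. The rise was 0.79 on the log2(CPM + 1) scale (95% interval 0.41 to 1.16, limma adjusted p = 0.0101), a scale that understates changes of low genes. edgeR gave an adjusted p of 0.00815. edgeR called 5.46% of all genes and DESeq2 6.42%, and both called Slc7a8, Psme1 and Fitm1 among the members. In the authors' deposited table the log2 fold change of Slc7a8 was 0.99 (SE 0.3) with an adjusted p of 0.0166, and it was the only member there past both an adjusted p of 0.05 and a 1.5-fold change, where 2.83% of all genes were. The limma call was lost without RH/+ replicate 2 (adjusted p = 0.0856) and without RH/RQ vehicle replicate 1 (adjusted p = 0.158). Markers of other cell types moved with this comparison. The summed level of 7 fibroblast markers was 908 and 980 CPM for RH/+, 1654 and 1558 CPM for RH/RQ vehicle, and 1517 and 1300 CPM for treated hearts. Of those markers 5 of 7 were called higher in RH/RQ vehicle hearts. That of 8 macrophage markers was 207 and 213, 290 and 278, and 268 and 225 CPM, with 4 of 8 called higher. That of 8 endothelial markers was 879 and 963, 1045 and 1021, and 958 and 904 CPM, highest in RH/RQ vehicle hearts without overlap, with 0 of 8 called. Their part in the result was not tested. In whole tissue RNA, fewer cells of a type and less RNA per cell cannot be told apart.

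Psme1 (position 55578123 to 55581529), a subunit of the interferon-inducible PA28 activator of the proteasome, lies 611.2 kb from Myh6 and was lower in RH/RQ vehicle hearts. It stood at 87.8 and 88.8 CPM in RH/+ vehicle, 72.4 and 64.2 CPM in RH/RQ vehicle, and 87.4 and 78.6 CPM in treated hearts. The RH/RQ vehicle libraries were the lowest of the 6, and the treated pair lay between them and RH/+. The change was -0.37 (95% interval -0.57 to -0.17, limma adjusted p = 0.0281). The authors' deposited values for Psme1 were -0.42 (SE 0.09) with an adjusted p of 0.000397, a change under 1.5-fold. The call was lost without RH/+ replicate 1 (adjusted p = 0.175), RH/+ replicate 2 (0.168) or RH/RQ vehicle replicate 2 (0.308). Psme2, its partner subunit, was at 31.0 and 34.3, 34.3 and 29.2, and 33.6 and 32.0 CPM in the same order. The Psme2 groups overlapped, with a change of -0.04 (limma adjusted p = 0.909). The cardiomyocyte marker sums above were lowest in RH/RQ vehicle hearts too, and their part in the values of Psme1, and of Fitm1 and Cideb below, was not tested.

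Fitm1 missed the limma threshold in this comparison. Its levels were 64.8 and 70.5 CPM in RH/+ vehicle, 51.6 and 52.1 CPM in RH/RQ vehicle, and 64.3 and 47.4 CPM in treated hearts. Both RH/RQ vehicle libraries lay below both RH/+ libraries, and the treated libraries spanned the RH/RQ vehicle pair. The change was -0.38 (95% interval -0.62 to -0.13, limma adjusted p = 0.0656), while edgeR called it (adjusted p = 0.0222). The authors' deposited values for Fitm1 were -0.43 (SE 0.1) with an adjusted p of 0.00112, a change under 1.5-fold. When treated replicate 1 or treated replicate 2 was left out of the shared fit, limma called Fitm1 too. With TMM or RLE factors, 1 member was higher and 3 were lower, namely Psme1, Fitm1 and Cideb. Under TMM the higher share of all calls was 56.6%, against 69.8% by library total. A non-coding gene, Gm15932, overlaps Fitm1 on the opposite strand by 375 bases, and the strand setting of the counting is not given.

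**Figure D2:**
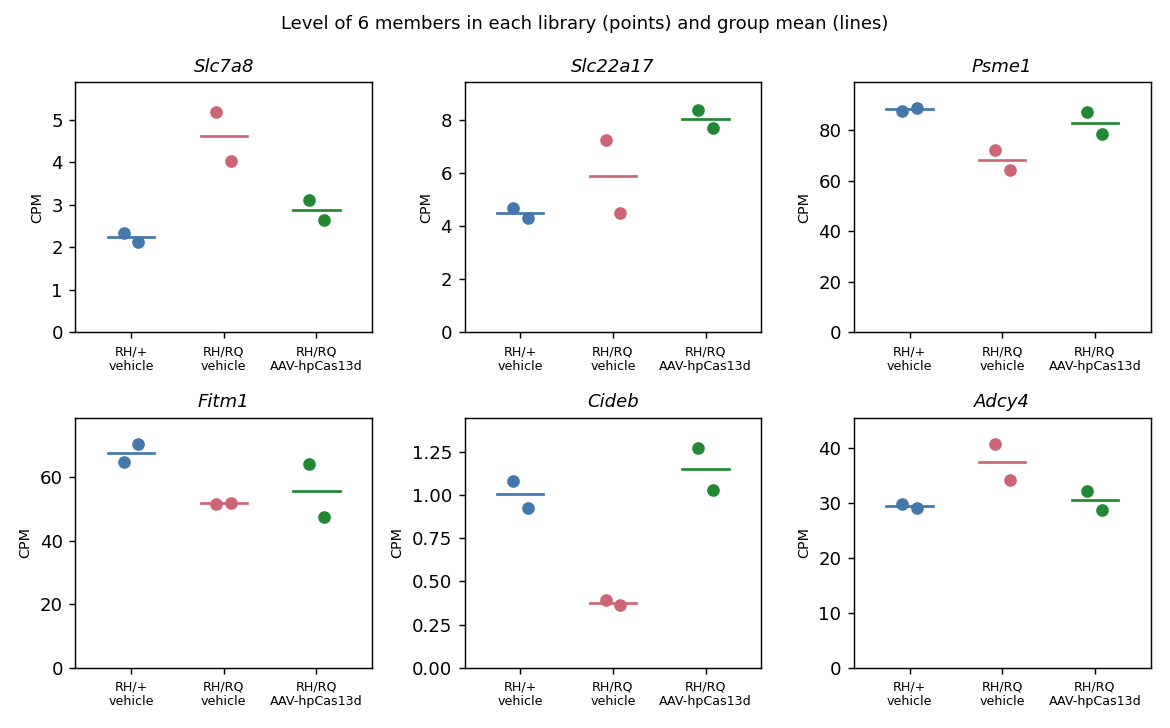
Points are the CPM of 6 members in each of the 2 libraries per group, and lines are group means; each axis starts at 0. Slc7a8 and Adcy4 are highest, and Psme1 and Cideb lowest, in RH/RQ vehicle hearts; Slc22a17 is highest in treated hearts. Adcy4 was chosen after its values were seen.

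Treated RH/RQ hearts were compared with RH/RQ vehicle hearts to ask whether flanking genes move with AAV-hpCas13d. Of 47 members, 1 was higher (Cideb) and 0 were lower by limma, against 2.05% of all genes called, 1.22% higher and 0.827% lower. edgeR, with 2.27% of all genes called, and DESeq2, with 2.49%, called 0 members in either direction, and 6 members stood at an unadjusted p under 0.05 by limma (12.8%, against 12.5% of all genes). The median change was 0.091 for the members and 0.044 for all genes tested, or 0.035 and -0.003 with TMM factors. On the log2(CPM + 1) scale, with the same limit for low genes, the 95% interval lay within 1.5-fold either way for 42 of the 47 members and 81.4% of all genes.

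Cideb (position 55754050 to 55758458), a lipid droplet protein best known from liver, lies 787.1 kb from Myh6 and was barely expressed. It had 41 and 37 reads in RH/+ vehicle, 20 and 14 in RH/RQ vehicle, and 46 and 39 in treated hearts, which is 1.08 and 0.927, 0.392 and 0.361, and 1.27 and 1.03 CPM. The RH/RQ vehicle libraries were lowest, and the RH/+ and treated libraries overlapped. The rise in treated against vehicle RH/RQ hearts was 0.64 (95% interval 0.29 to 0.99, limma adjusted p = 0.0459). edgeR (change 1.54, adjusted p = 0.0949) and DESeq2 (change 1.55, adjusted p = 0.0978) did not call it. The authors' deposited values for Cideb were 1.55 (SE 0.63) with an adjusted p of 0.34, so it was not past 0.05 there. The log2(CPM + 1) scale of limma understates changes of a gene this low. The limma call was also lost on leaving out treated replicate 1 (0.254), or from the RH/RQ vehicle pair replicate 1 (0.142) or replicate 2 (0.297). Cideb overlaps Nop9 by 1451 bases on the opposite strand, so its few reads cannot be assigned with certainty. Nop9, a ribosome assembly factor, was at 10.3 and 11.0, 11.6 and 13.5, and 11.1 and 12.2 CPM, and its groups overlapped in this comparison. The level of neutrophil markers moved with this comparison. Of 6 listed, 2 were tested, and both S100a8 (change 0.79, limma adjusted p = 0.0208) and S100a9 (1.30, limma adjusted p = 0.000522) were higher in treated than in vehicle RH/RQ hearts, while Ly6g was not found by symbol. Their part in the result was not tested.

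The members called between RH/RQ vehicle and RH/+ hearts were not called here. Slc7a8 had a change of -0.53 (95% interval -0.90 to -0.15, limma adjusted p = 0.174) and Psme1 of 0.28 (0.08 to 0.48, limma adjusted p = 0.19). Both comparisons share the RH/RQ vehicle libraries. Among the fibroblast markers, 3 of 7 were called lower in treated than in vehicle RH/RQ hearts, and their part in these values was not tested. Adcy4, an adenylyl cyclase chosen after its values were seen, was at 29.7 and 29.1 CPM for RH/+, 40.7 and 34.1 CPM for RH/RQ vehicle, and 32.1 and 28.7 CPM for treated hearts. Its RH/RQ vehicle libraries were the highest of the 6, without a call in any comparison. Endothelial marker sums were highest in RH/RQ vehicle hearts as well. In treated against vehicle RH/RQ hearts 1 of the 8 endothelial markers, Cldn5, was called lower, where 0.827% of all genes were. The part of these markers was not tested.

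Treated RH/RQ hearts were also set against RH/+ vehicle hearts, which had the same sex-linked pattern. Of 47 members, 1 was higher (Slc22a17) and 0 were lower, where limma called 2.86% of all genes, 2.33% higher and 0.53% lower. At an unadjusted p under 0.05 stood 6 members (12.8%, against 15.1% of all genes). edgeR, with 2.45% of all genes called, called the same member, and DESeq2, with 2.81%, called 0. The median change was 0.110 for the members and 0.084 for all genes tested, and with TMM factors these were 0.011 and -0.002. On the log2(CPM + 1) scale, with the same limit for low genes, the 95% interval lay within 1.5-fold either way for 38 of the 47 members and 79.1% of all genes.

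Slc22a17 (position 54906304 to 54913132), a membrane receptor for the iron-carrying protein lipocalin-2, lies 28.8 kb from Myh6. It was at 4.70 and 4.33 CPM in RH/+ vehicle, 7.27 and 4.51 CPM in RH/RQ vehicle, and 8.38 and 7.70 CPM in treated hearts. The treated libraries were the highest of the 6, and the RH/RQ vehicle pair was split, with its lower library next to RH/+. The rise from RH/+ to treated hearts was 0.71 (95% interval 0.33 to 1.09, limma adjusted p = 0.0339, edgeR adjusted p = 0.0432). DESeq2 gave an adjusted p of 0.0591, and limma with TMM factors 0.0575. The authors' deposited values for Slc22a17 were 0.72 (SE 0.23) with an adjusted p of 0.0796, so it was not past 0.05 there. Leaving out any of the 4 libraries compared lost the call, with an adjusted p of 0.112 or 0.159 when RH/+ replicate 1 or 2 was dropped and of 0.167 or 0.0503 when treated replicate 1 or 2 was. Of the fibroblast markers 4 of 7 were called higher in treated than in RH/+ hearts, and their part in the result was not tested. Ipo4, an importin, was at 13.5 and 12.8, 14.7 and 15.2, and 20.0 and 15.4 CPM. Its 3 groups did not overlap, rising in the order RH/+, RH/RQ vehicle and treated, with a change of 0.40 from RH/+ to treated hearts that missed the threshold (limma adjusted p = 0.149). Without treated replicate 2, Ipo4 was called and Slc22a17 was not.

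Groups that do not overlap, with both libraries of a group above both of another, are common with 2 libraries a group. In RH/RQ vehicle against RH/+ hearts, 13 members were higher and 11 lower in this sense, where 30.8% and 18.5% of all genes were. In treated against vehicle RH/RQ hearts the members numbered 18 higher and 4 lower, beside 26.2% and 14.4% of all genes. In treated RH/RQ against RH/+ hearts they numbered 19 higher and 4 lower, beside 35% and 9.66%.

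The members nearest to Myh6 were described whatever their values. On the 3′ side these were Cmtm5, Efs, Slc22a17, Pabpn1, Bcl2l2 and Ppp1r3e. Cmtm5, a membrane protein whose gene ends 2.6 kb from Myh6, had 9 and 16 reads in RH/+ vehicle, 26 and 18 in RH/RQ vehicle, and 22 and 11 in treated hearts. Efs, an adaptor of Src-family kinases, was at 2.15 and 4.11, 4.29 and 3.94, and 4.58 and 3.24 CPM. The spread of Efs inside the RH/+ pair was wider than any difference between group means. Pabpn1, the nuclear poly(A)-binding protein, was at 16.0 and 16.2, 19.6 and 15.1, and 22.5 and 18.9 CPM. Its treated libraries lay above both RH/+ libraries, with a change of 0.34 (limma adjusted p = 0.222). Bcl2l2, an inhibitor of apoptosis, was at 48.0 and 45.4, 50.1 and 48.5, and 55.3 and 51.8 CPM. Its groups did not overlap, yet no change passed the test. Ppp1r3e, a glycogen-targeting subunit of protein phosphatase 1, was at 2.34 and 2.38, 3.72 and 2.81, and 2.48 and 2.32 CPM. Both RH/RQ vehicle libraries were above the other 4, with a change of 0.34 from RH/+ that was not called (limma adjusted p = 0.354).

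On the 5′ side the nearest were Ngdn, Zfhx2, Thtpa, Ap1g2, Jph4 and Dhrs4. Ngdn, a nucleolar protein, was at 17.1 and 17.7, 21.0 and 15.6, and 21.4 and 18.7 CPM. Zfhx2, a homeodomain factor, was at 8.22 and 9.97, 8.68 and 8.74, and 8.13 and 8.81 CPM. The RH/RQ vehicle pair of Ngdn straddled its RH/+ pair, and in Zfhx2 all 3 groups overlapped. Thtpa, which hydrolyses thiamine triphosphate, was at 5.54 and 5.24, 5.65 and 6.14, and 7.25 and 6.59 CPM. Ap1g2, an adaptor of vesicle coats whose gene overlaps Thtpa by 412 bases on the opposite strand, was at 5.09 and 5.96, 8.55 and 6.37, and 8.74 and 6.38 CPM. Both RH/RQ groups lay above RH/+ for both genes, with Ap1g2 changes of 0.36 (limma adjusted p = 0.303) in vehicle and 0.38 (0.318) in treated hearts. Jph4, a junctophilin of neurons, had 10 and 11, 18 and 17, and 18 and 12 reads. Dhrs4 was at 87.5 and 90.8, 83.3 and 83.8, and 93.5 and 86.7 CPM. The RH/RQ vehicle libraries were lowest for Dhrs4, with a change of -0.09 (95% interval -0.28 to 0.10), and both RH/RQ pairs were above RH/+ in CPM for Jph4, without a call.

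Fold changes were compared with distance from Myh6 as a description. In RH/RQ vehicle against RH/+ hearts, the median was 0.136 for the 13 tested members under 250 kb from Myh6, -0.002 for the 6 at 250 to 500 kb and -0.042 for the 28 beyond 500 kb. Of the 13 nearest, 12 were above 0, where 57.8% of all genes were, and with TMM factors 11 were (median 0.127). Tested genes that lie this close to Myh6 but are not members are not counted here. Of these, Mhrt (-0.04) was below 0, as was Myh6 itself (-0.01). Above 0 were Gm49130 (0.06), Mir208b (0.1), Mir208a (0.12), Gm17428 (0.23), Gm31251 (0.24) and Myh7 (1.11). In treated RH/RQ against RH/+ hearts the medians were 0.260, 0.028 and 0.067. Again 12 of the 13 nearest were above 0, against 69.7% of all genes, and 11 were with TMM factors (median 0.183), where the farther bins fell to -0.049 and -0.036. Among the genes not counted, Myh6 (-0.15) and Mhrt (-0.06) were below 0 in treated against RH/+ hearts. Gm17428 and Gm31251 were at -0.0. Above 0 were Mir208a (0.13), Mir208b (0.2), Gm49130 (0.72) and Myh7 (0.98). Both comparisons with RH/+ hearts share the RH/+ libraries. In treated against vehicle RH/RQ hearts the medians were 0.016, 0.059 and 0.096, and 8 of the 13 nearest were above 0. Across the 47 members, the correlation of fold change with distance was -0.41, 0.15 and -0.39 (Pearson) and -0.32, 0.06 and -0.29 (Spearman) in the order RH/RQ vehicle against RH/+, treated against vehicle, and treated against RH/+. Members share the same 6 libraries and some overlap each other, so these values describe and do not test. Of the 13 nearest, limma called Slc7a8 and Slc22a17, each in a single comparison. The interval of the change lay within 1.5-fold for 8, 9 and 6 of these 13, in the same order of comparisons. Of all genes, 78.1%, 81.4% and 79.1% did.

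**Figure D3:**
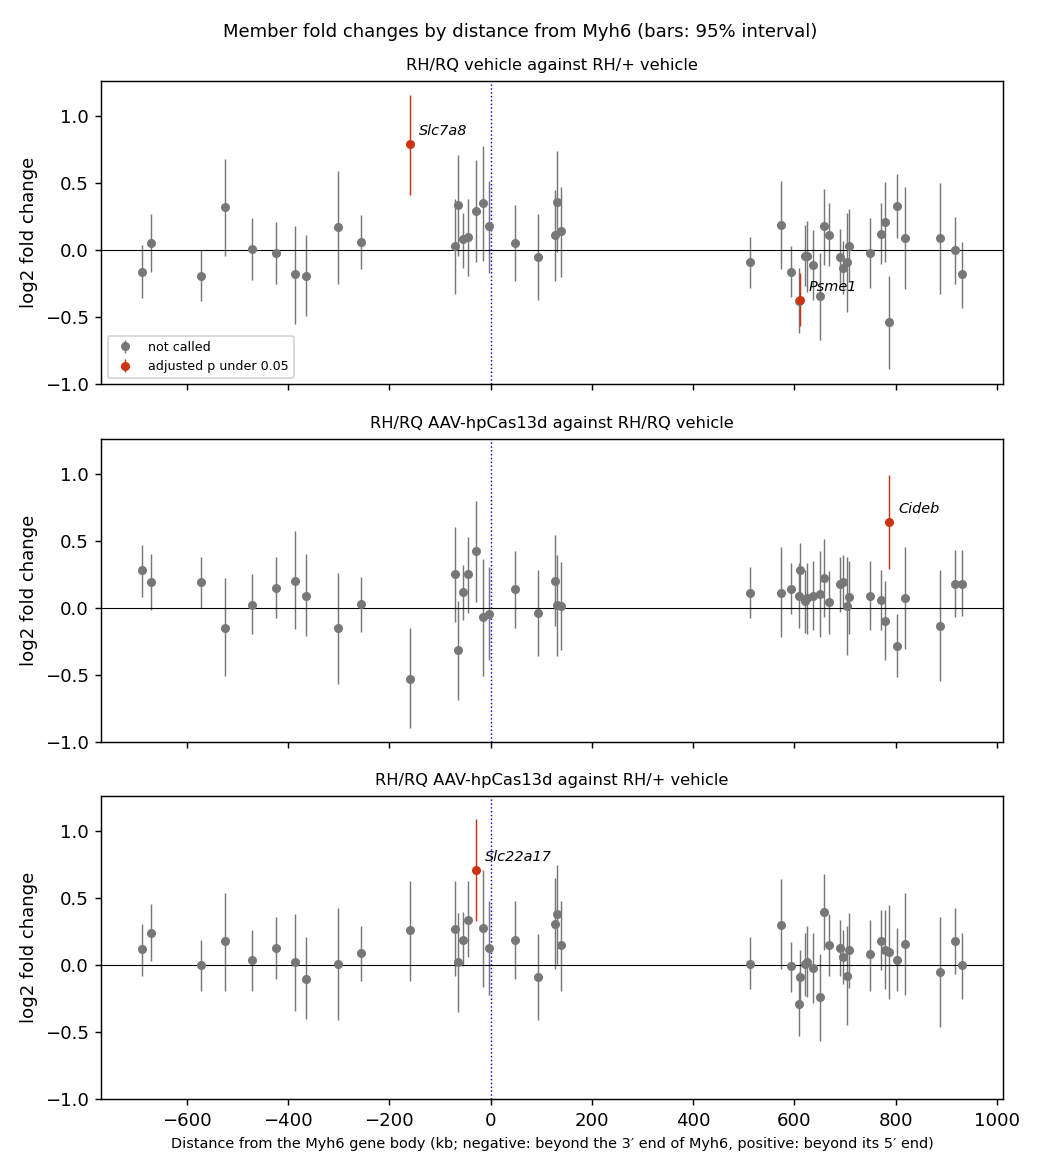
Each point is 1 of the 47 tested members, placed by distance from the Myh6 gene body (kb, negative beyond its 3′ end) and by log2 fold change with its 95% interval; each panel is 1 comparison and red marks calls. Each panel holds 1 or 2 red points, and within 250 kb of Myh6 12 of 13 points lie above 0 in the top and bottom panels.

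By role, calls were scattered. Among 4 transport genes, Slc7a8 and Slc22a17 were called as above. Slc7a7, a transporter of cationic amino acids, was at 2.34 and 2.56, 3.31 and 3.30, and 2.70 and 3.08 CPM, and Oxa1l, which inserts proteins into the inner mitochondrial membrane, at 112 and 117, 103 and 97.5, and 118 and 111 CPM. For Slc7a7 the groups did not overlap and for Oxa1l the RH/RQ vehicle pair was lowest, and neither passed the test. Among 5 genes of the proteasome, ubiquitin and NEDD8, all had fold changes below 0 in RH/RQ vehicle against RH/+ hearts, from -0.37 to -0.04, and above 0 in treated against vehicle hearts, from 0.05 to 0.28. With TMM factors these counts were 5 of 5 below 0 and 4 of 5 above 0. Over all genes tested, 57.8% were above 0 in the first comparison and 60.5% in the second. Both comparisons use the RH/RQ vehicle libraries, on opposite sides, so these opposite signs are not independent of each other. Only Psme1 was called. Nedd8 was at 84.2 and 76.6, 75.6 and 71.1, and 87.7 and 79.8 CPM, and Rnf31, the catalytic subunit of the linear ubiquitin ligase, at 20.3 and 25.3, 21.4 and 22.5, and 24.7 and 21.5 CPM. The Rnf31 groups overlapped in all 3 comparisons.

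The interferon and cell death genes were Irf9, Ripk3, Bcl2l2 and Cideb, whose placing here follows its name. Irf9, the DNA-binding subunit of the interferon-activated ISGF3 complex, was at 22.7 and 23.2, 23.7 and 18.9, and 23.2 and 22.0 CPM. Ripk3, the kinase of necroptosis, was at 3.10 and 3.46, 4.14 and 3.02, and 4.08 and 3.48 CPM. Neither passed the test, and both were spread widely inside the RH/RQ vehicle pair. Among 11 tested metabolic genes none was called by limma, with 1, 1 and 2 at an unadjusted p under 0.05. In the same 3 comparisons 17.1%, 12.5% and 15.1% of all genes stood under that unadjusted p. edgeR and DESeq2 called Fitm1 between RH/RQ vehicle and RH/+. Fold changes of the 11 ran from -0.38 to 0.34, -0.32 to 0.28 and -0.29 to 0.31. Pck2, the mitochondrial enzyme that makes phosphoenolpyruvate, was at 9.82 and 13.3, 13.5 and 12.9, and 16.9 and 12.2 CPM, with a wider spread inside the treated pair than between group means. Dad1, a subunit of the oligosaccharyltransferase, was at 69.9 and 75.4, 65.9 and 63.7, and 81.4 and 76.2 CPM. For Dad1 the 3 groups did not overlap, and its change of 0.28 in treated against vehicle hearts was not called (limma adjusted p = 0.176).

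None of the 7 tested genes of RNA processing and translation was called by limma, edgeR or DESeq2, with 0, 0 and 1 at an unadjusted p under 0.05. Their changes ran from -0.02 to 0.21, -0.14 to 0.25 and -0.05 to 0.34 in the 3 comparisons. Prmt5, an arginine methyltransferase needed for splicing factors, was at 35.0 and 41.1, 35.1 and 40.1, and 40.7 and 42.7 CPM, and Acin1, a splicing cofactor, at 90.8 and 101, 99.7 and 100, and 109 and 94.7 CPM. In both genes the RH/RQ vehicle levels fell among those of RH/+. None of the 9 tested genes of trafficking and adhesion passed in limma, edgeR or DESeq2 either (0, 0 and 2 at an unadjusted p under 0.05), with changes from -0.19 to 0.36, -0.15 to 0.22 and -0.10 to 0.40. The 5 tested genes of transcription and chromosomes gave no call by these tools (1, 0 and 0 at an unadjusted p under 0.05). Beside the unadjusted counts of these roles stand 17.1%, 12.5% and 15.1% of all genes. Rec8, a cohesin subunit of meiosis, had 15 and 13 reads in RH/+, 6 and 1 in RH/RQ vehicle, and 7 and 4 in treated hearts. Its RH/+ libraries were highest, and its change of -0.34 between RH/RQ vehicle and RH/+ was not called (limma adjusted p = 0.254). The log2(CPM + 1) scale understates a gene this low, and edgeR put the change of Rec8 at -2.25, also without a call (edgeR adjusted p = 0.135). Adcy4 and Jph4, the tested genes of calcium and membrane signalling, are described above.

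Besides Myh6 and Myh7, the same interval holds genes that are not members, 39 of them in the tables and 16 tested. Of these 16, limma called 2 in RH/RQ vehicle against RH/+ hearts, where it called 4.99% of all genes. In treated hearts it called 3 against RH/RQ vehicle (2.05% of all genes) and 4 against RH/+ (2.86%). Myh6 itself was at 14786 and 18251, 15066 and 17720, and 14297 and 15258 CPM and was not called in any comparison. Gene-level values do not separate its alleles. Myh7, the beta myosin heavy chain next to it, was at 255 and 286, 514 and 662, and 505 and 563 CPM and was called higher than RH/+ in both RH/RQ groups. Gm49130, an antisense gene that overlaps the 3′ end of Myh6, was at 8.95 and 7.27 CPM for RH/+, 8.23 and 8.71 CPM for RH/RQ vehicle, and 16.7 and 11.5 CPM for treated hearts. The treated libraries were the highest and did not overlap the others, with a change of 0.65 against RH/RQ vehicle (limma adjusted p = 0.0408) and 0.72 against RH/+ (0.0175). The first was lost without treated replicate 1 (0.451) or either RH/RQ vehicle library (0.133 and 0.12), and the second without RH/+ replicate 2 (0.173) or treated replicate 1 (0.253). Without a known strand setting, its reads cannot be told apart from those of Myh6. Mmp14, a membrane-bound matrix protease at 496.6 kb, was at 13.0 and 16.6, 37.7 and 45.4, and 27.2 and 21.7 CPM. Its groups did not overlap, with a rise between the vehicle groups of 1.43 (95% interval 1.15 to 1.71, limma adjusted p = 2.72e-07), more than any member. It was lower in treated than in vehicle RH/RQ hearts by -0.74 (limma adjusted p = 0.00277). That call was lost without RH/RQ vehicle replicate 2 (0.0654). Against RH/+ it was 0.68 higher in treated hearts (limma adjusted p = 0.00492), a call lost without RH/+ replicate 1 (0.125) or treated replicate 1 (0.0804). The fibroblast marker sums given above also rose in RH/RQ vehicle hearts, and their part in the level of Mmp14 was not tested. The other limma calls were of 2 predicted genes. Gm6852, annotated as a processed pseudogene, was at 1.79 and 1.33, 3.16 and 4.36, and 5.68 and 5.75 CPM. Gm6852 was called higher than RH/+ in both RH/RQ groups. Its change in treated hearts was 1.4 (limma adjusted p = 5.89e-05), a call lost only without a filter. Its change in vehicle hearts was 0.89 (limma adjusted p = 0.00433), a call lost on dropping replicate 2 of RH/+ (0.0706) or of RH/RQ vehicle (0.0984). Gm43305 was at 7.43 and 6.49, 7.33 and 7.48, and 3.97 and 4.24 CPM and was called lower in treated hearts against both vehicle groups. Against RH/RQ vehicle the change was -0.72 (limma adjusted p = 0.0177), and the call was lost without RH/RQ vehicle replicate 1 (0.0677) or 2 (0.147) or treated replicate 1 (0.0887). Against RH/+ it was -0.64 (limma adjusted p = 0.0319), and the call was lost when RH/+ replicate 1 (0.379) or 2 (0.0802) or treated replicate 1 (0.128) was dropped. Mrpl52, a protein of the mitochondrial ribosome chosen after its values were seen, was at 23.5 and 24.4, 17.4 and 17.7, and 27.8 and 20.9 CPM. Its RH/RQ vehicle pair was lowest, with a change of -0.43 from RH/+ that limma did not call (adjusted p = 0.0601) and that edgeR (0.0153) and DESeq2 (0.0134) did.

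**Figure D4:**
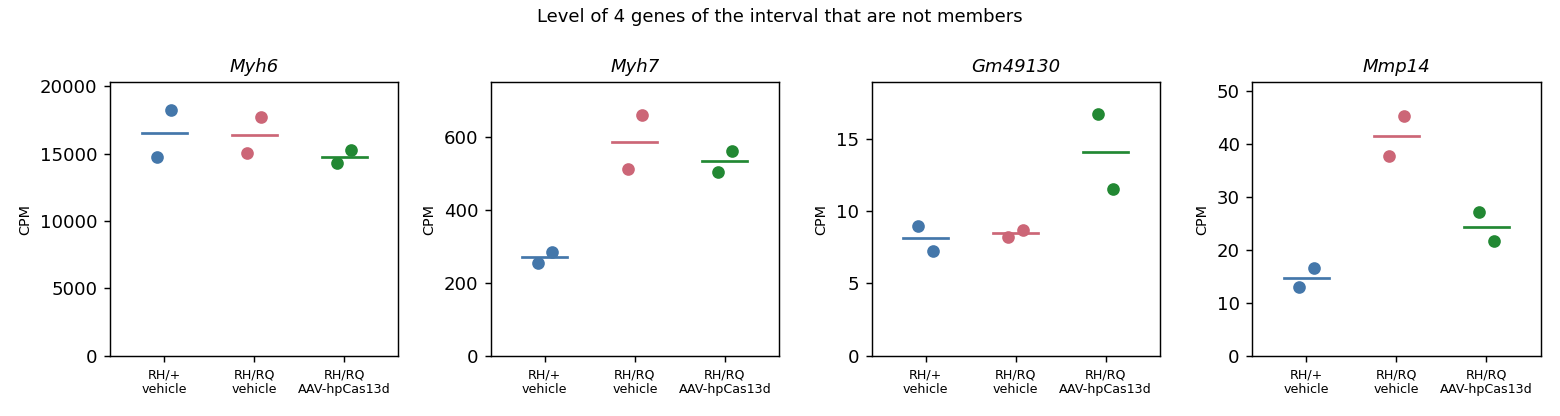
Points are the CPM of 4 genes of the interval outside the member list in each of the 2 libraries per group, and lines are group means; each axis starts at 0. Myh6 libraries overlap between groups, Myh7 and Mmp14 are lowest in RH/+ vehicle, and Gm49130 is highest in treated hearts.

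Genes of the interferon and antigen processing pathway elsewhere in the genome, to which Psme1, Psme2 and Irf9 belong by function, were read beside them. Of 18 tested, Usp18, which removes the ubiquitin-like protein ISG15, and Oasl2 were lower in RH/RQ vehicle than in RH/+ hearts, and no other was called by limma. These are 2 of 18, where 1.51% of all genes were called lower, and the median change was -0.212 for the list and 0.038 for all genes. The change of Oasl2 was -0.53 (limma adjusted p = 0.0232), and its call was lost when RH/+ replicate 1 (0.177) or 2 (0.12) or RH/RQ vehicle replicate 2 (0.28) was dropped. In treated against vehicle hearts Usp18 alone was called, higher, where 1.22% of all genes were. The median there was 0.224 for the list and 0.044 for all genes. In treated against RH/+ hearts Psmb10, an immunoproteasome subunit, alone was called, higher, where 2.33% of all genes were. The median there was 0.011 for the list and 0.084 for all genes. That call of Psmb10 (change 0.42, limma adjusted p = 0.034) was lost in 9 of 16 alternatives, with an adjusted p of 0.133 by edgeR, 0.145 by DESeq2 and 0.139 by limma with TMM factors. Usp18 stood at 8.56 and 7.47 CPM for RH/+, at 4.31 and 3.45 CPM for RH/RQ vehicle, and at 9.78 CPM or above in both treated libraries. The RH/RQ vehicle libraries were lowest for Usp18, as for Psme1, with changes of -0.89 (limma adjusted p = 0.00144) and 1.17 (0.000122).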

How the data were processed

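Heart RNA was measured in 6 libraries, 2 in each of 3 groups taken from the labels. HISAT2, HTSeq, DESeq2 and mm10 are named per the submitters' processing notes; their versions and roles, the annotation and the strand setting are not given in the sources used here. The authors deposited 3 full tables of CPM, each with 4 libraries. Per the file headers these tables also hold p-values, a test score, a mean signal per gene, and log2 fold changes with standard errors. The authors' deposited shorter gene lists were not used here.

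The 3 tables were joined, and libraries present in 2 of them had identical CPM. All values (100%, tolerance 0.001) were whole multiples of 1 read, so reads were recovered. The filter on low genes was filterByExpr (minimum count 10), leaving 16804 genes. The test was limma-trend (limma 3.58.1) on log2(CPM + 1) by library total, with all 6 libraries in 1 fit of 3 group means and Benjamini-Hochberg adjustment over all genes tested, in R 4.3.3. Calls were at an adjusted p under 0.05. edgeR 4.0.16 (quasi-likelihood test) and DESeq2 1.42.0 were run on the recovered reads. Replicate libraries were not duplicates (chi-square per gene 12.9, 17.8 and 25.0). The procedure was tested on simulated reads.

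Positions are from GENCODE M21 on GRCm38 (mm10), promoters from RefSeq on GRCm38.p6. Genes named with values are the members called, the 6 nearest on each side, and the 3 with the largest change in each comparison, 17 in all. Other members named under their roles were chosen after their values were seen. The members, lists, bins and rules were chosen with earlier results of these data known. In total 22 of the 50 members overlap another gene in the tables, 13 of them another member, and their counts are uncertain to that extent. Alternatives were edgeR, DESeq2, TMM and RLE factors, pseudocounts of 0.1 and 5, no filter, a mean of at least 1 CPM, only the 4 libraries compared, a replicate block and leaving out each library. Medians over all members found, without a filter, were added after the data were seen. A gene that the naming rule for the interferon list would name is not reported here.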

Additional observations from a re-analysis of the deposited data

How the results depend on the processing

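Among members in RH/RQ vehicle against RH/+ hearts, 2 rather than 1 were called lower with edgeR, DESeq2, the 4 libraries alone or the replicate block, 3 with TMM or RLE factors and 0 without a filter, which also left 0 higher; leaving out each library gave 0 to 3 lower and 0 to 1 higher. In treated against vehicle RH/RQ hearts the 1 higher call became 0 with edgeR, DESeq2, TMM or RLE factors, either pseudocount, no filter or a mean of at least 1 CPM, a filter that removes Cideb, and 0 to 1 across left-out libraries. In treated RH/RQ against RH/+ hearts it became 0 with DESeq2, TMM or RLE factors or no filter, and ranged from 0 to 1 across left-out libraries, with 0 to 1 lower. There the median change of the members, 0.110, was 0.012 with edgeR, 0.009 with DESeq2 and RLE factors, 0.011 with TMM factors and 0.022 to 0.163 across left-out libraries. The cause was not tested. No named gene that was called reversed its sign. Over all genes, calls without 1 library ranged from 393 (without RH/+ replicate 1) to 1195, from 155 (without RH/RQ vehicle replicate 2) to 661, and from 206 (without RH/+ replicate 1) to 744 in the 3 comparisons. A replicate block on the leading digit of the sample titles raised calls over all genes to 1173, 567 and 715. Deviations of same-numbered libraries correlated at 0.13, -0.02 and 0.07 across genes. The labels do not say what the digit stands for, and whether it marks a batch was not tested. With 2 libraries a group, an exact permutation test of a single gene cannot go below 0.333.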

Other observations

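Paralogs and partners of the flanking genes that lie elsewhere in the genome were read as a separate list of 30 genes, of which 28 were tested. In RH/RQ vehicle against RH/+ hearts Lrp1, a large endocytic receptor related to Lrp10, was higher, and Rrad and Adcy5 were lower. These are 3 of 28, where limma called 4.99% of all genes. The Adcy5 call (change -0.38, limma adjusted p = 0.019) was lost when RH/+ replicate 1 (0.0898) or 2 (0.196) or RH/RQ vehicle replicate 1 (0.253) was dropped, and that of Lrp1 (0.59, limma adjusted p = 0.000924) when RH/+ replicate 1 was (0.0529). Rrad, a small GTPase that limits calcium channel activity and is related to Rem2, was at 189 and 206 CPM for RH/+, 125 and 108 CPM for RH/RQ vehicle, and 166 and 142 CPM for treated hearts. The RH/RQ vehicle libraries were lowest, with a change of -0.76 (limma adjusted p = 3.1e-05), and the treated libraries lay between the other pairs, 0.40 above RH/RQ vehicle (limma adjusted p = 0.0385). The latter call was lost in 7 of 16 alternatives, edgeR among them. From RH/+ to treated hearts the change of Rrad was -0.36, which limma did not call (adjusted p = 0.0585). There edgeR (adjusted p = 0.0123) and DESeq2 (adjusted p = 0.000405) called Rrad lower. Bcl2l1, an inhibitor of apoptosis related to Bcl2l2, was at 24.5 and 26.0, 29.2 and 29.3, and 43.3 and 39.6 CPM. Its treated libraries were the highest of the 6, 0.69 above RH/+ (limma adjusted p = 0.000428) and 0.49 above RH/RQ vehicle (0.0152). The call against RH/RQ vehicle was lost without either RH/RQ vehicle library or without treated replicate 1. In treated against vehicle RH/RQ hearts 2 of 28 were called higher (Rrad and Bcl2l1) and 0 lower, where 1.22% of all genes were higher. In treated against RH/+ hearts 3 of 28 were higher (Gem, Bcl2l1 and Lrp1) and 0 lower, where 2.33% of all genes were higher. Lrp1 was 0.59 above RH/+ there (limma adjusted p = 0.00133), a call lost without RH/+ replicate 1. Gem was 0.61 above RH/+ (limma adjusted p = 0.0422), a call lost in 10 of 16 alternatives. Slc3a2, the heavy chain that pairs with Slc7a8, was at 33.1 and 33.5, 39.8 and 34.6, and 39.9 and 35.9 CPM. It lay above RH/+ in both RH/RQ groups without a call in any comparison.

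Of the other marker lists, Ly6g, a defining neutrophil marker, was not found by symbol. The 5 neutrophil markers present summed to 5.83 and 3.88, 2.72 and 2.50, and 8.85 and 6.75 CPM, lowest in RH/RQ vehicle hearts, and both of those tested, S100a8 and S100a9, were called higher in treated than in vehicle RH/RQ hearts. The 4 adipocyte markers summed to 0.788 and 7.22 CPM in the RH/+ pair and to at most 0.501 CPM elsewhere, so RH/+ replicate 2 stood apart. The 6 Schwann cell and neuronal markers summed to 9.25 to 13.7 CPM and the 4 T cell markers to 1.95 to 5.07 CPM.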
